A study of Homo sapiens with 66 samples.

Results

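Glycogen metabolism genes were followed through chromatin immunoprecipitation sequencing (ChIP-seq) of the hypoxia-inducible factor (HIF) subunits in human cell lines. The 8 genes, PPP1R3C, PPP1R3B, GBE1, GYS1, PYGL, PYGM, PGM1 and UGP2, were a given list, out of 20163 protein-coding genes in the annotation. A peak was given to 1 of them when its centre lay in the gene body or within 50 kb (50000 bp) of one of its transcription start sites, and when no other protein-coding gene had a nearer start site. By this rule 195 of the 131425 peaks in the 50 deposited peak lists belonged to 7 of the 8 genes, and none belonged to PYGM.

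Oxygen controls the level of the HIF-1α and HIF-2α subunits, while HIF-1β is always present and pairs with either of them to bind DNA. The dimers recognise the hypoxia response element (HRE), whose core is ACGTG or GCGTG. The antibodies were PM14 for HIF-1α, PM9 for HIF-2α and NB100-110 for HIF-1β. The 50 lists formed 25 groups of 2 libraries.

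HKC-8, a line from the proximal tubule of the human kidney, served in a pair of experiments. The severity and duration experiment kept the cells for 6, 16 or 48 h in 0.5% oxygen, or for 6 h in 3% oxygen, and used all 3 antibodies in each condition. In the knockout experiment wild-type HKC-8 cells, HIF-1α knockout (KO) cells and HIF-2α KO cells were kept at 0.5% oxygen for 16 h. Each knockout line was a single CRISPR-Cas9 clone, so a difference between it and the wild type cannot be told apart from a difference between clones. RCC4, a kidney cancer line that lacks functional VHL and so keeps HIF-α in air, was harvested in normoxia. HepG2, a liver cancer line, was kept at 0.5% oxygen for 16 h. Peak lists hold no RNA or protein, so neither the knockouts nor the identity of the lines could be checked here.

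Glycogen is the branched glucose store of liver, muscle and many other cells. To build it, PGM1 turns glucose 6-phosphate into glucose 1-phosphate, UGP2 makes UDP-glucose, GYS1 adds the glucose units to the chain and GBE1 places the branches. The phosphorylases PYGL (liver form) and PYGM (muscle form) release glucose units again. PPP1R3C and PPP1R3B are targeting subunits that bring protein phosphatase 1 to the glycogen particle, where it activates the synthase and inactivates the phosphorylase. Hypoxic cells are known to store glycogen, and several of these genes are known HIF targets.

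The value used throughout is the rank percentile, the share of the peaks in a list whose score is no higher than that of the peak in question. A value near 100 therefore marks one of the strongest peaks of that library, and a library without a peak was given 0. The lists ran from 237 to 8279 peaks with a median of 1455, and read depth was unknown. In the severity and duration experiment the longest list held 1793 peaks, and in the knockout experiment the HIF-1β lists of the wild type held 6199 and 8279. Some libraries stood apart. The HIF-2α library of replicate 2 at 48 h held the 237 peaks, and the next shortest list held 558. In HepG2 the replicates of an isoform resembled each other less than libraries of different isoforms with different replicate numbers did. Over genes with a peak in either list, rank percentiles correlated with r = 0.199 between the HIF-1α replicates and r = 0.0617 between the HIF-2α replicates. The correlation was r = 0.376 between HIF-1α replicate 1 and HIF-2α replicate 2, and r = 0.496 between HIF-1α replicate 2 and HIF-2α replicate 1. Between same-numbered libraries of the isoforms it was r = 0.0486 for replicate 1 and r = 0.319 for replicate 2. With the HIF-1β libraries, HIF-1α replicate 2 (r = 0.606 and 0.555) and HIF-2α replicate 1 (r = 0.538 and 0.479) correlated more than HIF-1α replicate 1 (r = 0.192 and 0.0373) and HIF-2α replicate 2 (r = 0.230 and 0.0559). Crossed labels and a weaker pair of libraries cannot be told apart from these values. Results that rest on HepG2 are therefore also given without it.

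The sequences around the HRE cores of the main sites are shown because they hold the cores that lay within 100 bp of the site centres. Each was read 5′ to 3′ on the strand of the gene from GRCh37 (hg19), and capitals mark an HRE core on either strand, which reads CACGT or CACGC where the core lies on the other strand. In the distal PPP1R3C site, which held no HRE core, capitals mark TGACTCA, a motif of the AP-1 family.
PPP1R3C promoter, chr10:93392943-93393027, minus strand: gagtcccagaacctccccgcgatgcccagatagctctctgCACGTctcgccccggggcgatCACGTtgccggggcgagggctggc
PPP1R3C distal site, chr10:93412358-93412444, minus strand: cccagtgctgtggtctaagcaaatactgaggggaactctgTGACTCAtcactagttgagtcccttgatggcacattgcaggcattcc
GBE1 promoter site in a coding exon, chr3:81810554-81810638, minus strand: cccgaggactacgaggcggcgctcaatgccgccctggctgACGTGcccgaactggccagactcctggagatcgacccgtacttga
GBE1 intronic site, chr3:81766165-81766249, minus strand: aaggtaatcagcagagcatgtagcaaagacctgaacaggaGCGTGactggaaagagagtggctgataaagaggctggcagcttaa
PGM1 promoter, chr1:64059414-64059479, plus strand: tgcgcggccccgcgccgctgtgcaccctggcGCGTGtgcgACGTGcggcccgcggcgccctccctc
UGP2 promoter site in an intron, chr2:64069757-64069841, plus strand: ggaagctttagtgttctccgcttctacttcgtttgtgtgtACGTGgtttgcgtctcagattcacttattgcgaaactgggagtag
Promoter shared by GYS1 and RUVBL2, chr19:49496842-49496870, minus strand: ccaCACGTcctcCACGCtcctttcctctt

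The number of libraries with a peak fell in the order PPP1R3C (49 of 50), GBE1 (36), PGM1 (25), UGP2 (17), PPP1R3B (16), PYGL (14), GYS1 (3) and PYGM (0). A peak in at least 1 library was found for 7 of the 8 genes, against 60.1% of all protein-coding genes. A peak in at least 10 libraries was found for 6 of the 8, against 12.1% of all, and a peak in at least 25 libraries for 3 of the 8, against 2.17% of all. No library held peaks at more than 6 of the genes. Among the 237 strongest peaks of every list, which makes the lists equally long, PPP1R3C remained in 42 libraries, GBE1 in 23 and PGM1 in 17, and the other 5 genes in none. Loss was common in that setting. Of all genes, 3508 had a peak in at least 4 of the 28 HIF-1α and HIF-2α libraries from cells without a knockout, and 374 did in the shortened lists.

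**Figure D1:**
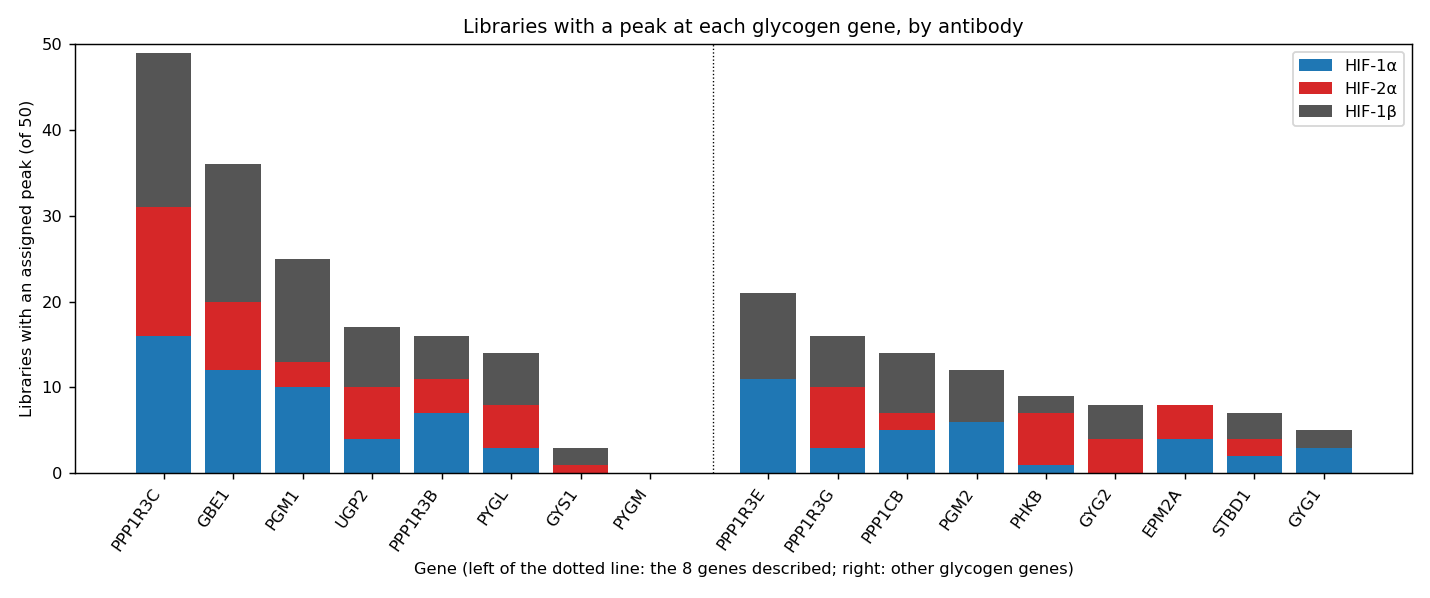
Libraries with an assigned peak (y axis, of 50) for the 8 glycogen genes described and for 9 other glycogen genes with a peak in at least 5 libraries (x axis), stacked by antibody. PPP1R3C reached 49 libraries with all 3 antibodies, whereas PPP1R3E, at 21 libraries, had no HIF-2α segment.

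The 195 peaks merged into 23 sites. Peaks in at least 5 libraries were found at 8 of them, and 6 of these 8 were promoter sites. The other 15 sites had peaks in fewer than 5 libraries, 10 of them in a single library. An HRE core lay within 100 bp of the median centre in 6 of the 8 recurrent sites, the exceptions being the PYGL promoter and the distal PPP1R3C site. Of all 50169 merged sites in the series, 34.0% held a core in a window of the same 201 bp, of the 2652 sites called in at least 10 libraries 69.6% did, and of 78564 windows around protein-coding start sites 41.0% did.

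PPP1R3C, the targeting subunit of protein phosphatase 1 that directs it to glycogen, carried the most frequent peak of the group and the one with the highest median rank percentile, 97.6 against 93.5 for the GBE1 promoter. Scores do not compare between lists, and the libraries with a peak differed between the sites, so their medians give no order. They were 481 at the GBE1 promoter (35 libraries) and 409 at the PPP1R3C promoter (49 libraries). Its promoter site (chr10:93392250-93393774) lay outside the gene, and the centres of the 49 peaks fell between -334 and -125 bp from the start site, negative values being upstream (median -197 bp, SD 45.0 bp). The window held 3 HRE cores, at -136, -157 and -258 bp, of which the pair nearest the start site is printed above. The promoter peak was among the 10 strongest of its list in 5 libraries and among the 50 strongest in 26 libraries. Its best position was 5, reached in HepG2.

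Across the severity and duration experiment the PPP1R3C promoter peak was present in 23 of 24 libraries. The HIF-1α values lay between 97.2 and 98.8 in all 8 libraries, with a median of 98.1. The HIF-1β values lay between 89.0 and 99.4 in all 8 libraries, with a median of 97.9. The HIF-2α values lay between 69.7 and 98.5 in 7 of 8 libraries, with a median of 94.2, and the library without a peak was the 237-peak list. Values this close to 100 leave little room to show a change. The scores of the same HIF-1α peaks, which are not comparable between lists, were 159 and 126 at 3% oxygen. In 0.5% oxygen they reached 369 and 225 after 6 h, 704 and 412 after 16 h, then 310 and 138 after 48 h. The lowest HIF-2α values, 69.7 and 89.9, were those at 3% oxygen.

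In RCC4 the PPP1R3C promoter stood at 99.8 and 98.9 with HIF-1α, at 97.8 and 93.3 with HIF-2α, and at 99.3 and 99.4 with HIF-1β. In HepG2 all 6 values lay between 96.0 and 99.9. Wild-type HKC-8 cells of the knockout experiment stood below all these groups with HIF-1α, at 19.9 and 44.6, and with HIF-1β, at 76.6 and 87.4. Their HIF-2α libraries disagreed, with 97.0 inside the range of the other groups and 33.4 below it. The promoter peak was called in every library of that experiment, and the wild-type HIF-1α values were the lowest HIF-1α values at this promoter in the series.

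PPP1R3C also had a distal site at -19.5 kb from its start site (chr10:93411851-93412929). It was called in 12 libraries, of which 9 were HIF-2α, 3 were HIF-1β and none were HIF-1α. In the knockout experiment the HIF-1α lists held 915 to 1913 peaks and the HIF-2α lists 4537 to 6749. The part of list length in the missing HIF-1α peaks was not tested. The HIF-2α values were 33.0 at 6 h in 0.5% oxygen, 61.7 at 16 h, 67.0 and 87.0 at 3% oxygen, 34.0 and 56.4 in wild-type cells, 67.2 and 60.8 in HIF-1α KO cells, and 65.3 in RCC4, and HepG2 had none. Neither ACGTG nor GCGTG was found on either strand anywhere in the 1079 bp of the site. It held TGACTCA within 100 bp of its centre, a motif that was looked for after the values were seen: 7.98% of all merged sites, 18.1% of the sites called in at least 10 libraries and 2.46% of start site windows held TGACTCA or TGAGTCA.

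GBE1, the branching enzyme, had peaks in 36 libraries. Its promoter site (chr3:81809562-81811556) was called in 35 of them, 12 with HIF-1α, 8 with HIF-2α and 15 with HIF-1β. The centre of this site lay 207 bp downstream of the start site, in a coding exon, and the single HRE core of the window was 200 bp downstream. With HIF-1α the values were 92.2 in 1 of 2 libraries at 6 h in 0.5% oxygen, 93.4 and 83.5 at 16 h, 75.4 in 1 of 2 libraries at 48 h, and no peak in either library at 3% oxygen. With HIF-2α none of the 8 libraries of the severity and duration experiment had a peak there.

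In wild-type cells of the knockout experiment the GBE1 promoter stood at 94.9 and 95.6 with HIF-1α and at 64.2 and 71.7 with HIF-2α. In RCC4 it stood at 99.8 and 99.6 with HIF-1α and at 94.0 and 77.7 with HIF-2α. In these conditions both HIF-1α libraries ranked above both HIF-2α libraries. In HepG2 the values were 93.5 and 99.9 with HIF-1α and 99.5 and 97.2 with HIF-2α, and the antibodies overlapped.

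A second GBE1 site lay in an intron (chr3:81765734-81766773), 26.5 kb downstream of the nearest start site. It was called in 9 libraries, 4 with HIF-2α and 5 with HIF-1β, and in none with HIF-1α. In the knockout experiment its best position was 2498, and the HIF-1α lists there held only 915 to 1913 peaks. Positions do not carry over from the list of one antibody to that of another. The missing HIF-1α peaks of that experiment carry little weight, since the part of list length in them was not tested. The HIF-2α values were 38.3 and 61.6 in wild-type cells and 47.6 and 61.8 in HIF-1α KO cells. Its window held 1 GCGTG core, printed above. Apart from HepG2 HIF-1β replicate 2, with 36.9, every library with this peak came from the knockout experiment.

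PGM1, phosphoglucomutase, had a promoter site (chr1:64058450-64060631) in 24 libraries, 10 with HIF-1α, 2 with HIF-2α and 12 with HIF-1β. The site was centred 18 bp downstream of the start site in the 5′ UTR, and its GCGTG and ACGTG cores lay at -33 and -24 bp, both in the sequence printed above. With HIF-1α the values were 95.3 and 95.7 at 6 h in 0.5% oxygen, 92.0 and 90.0 at 16 h, and 91.9 and 79.3 at 48 h. None of the 8 HIF-2α libraries of this experiment had a peak there. At 3% oxygen neither HIF-α antibody gave a peak, and HIF-1β gave 51.0 in 1 of 2 libraries.

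In wild-type cells of the knockout experiment the PGM1 promoter had no peak with HIF-1α or HIF-2α and 26.8 in 1 of 2 HIF-1β libraries. In RCC4 it stood at 98.4 and 92.2 with HIF-1α, at 60.0 in 1 of 2 HIF-2α libraries, and at 94.1 and 97.0 with HIF-1β. In HepG2 it was present in 1 of 2 libraries with either HIF-α antibody, at 96.8 with HIF-1α replicate 2 and at 98.1 with HIF-2α replicate 1, the libraries that correlated with r = 0.496 above. HIF-1β in HepG2 gave 97.1 and 93.5.

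UGP2, which makes the UDP-glucose that the synthase uses, had a promoter site (chr2:64067351-64070361) in 15 libraries. The site was centred 237 bp downstream of a start site, in an intron, with an HRE core 227 bp downstream. HepG2 had this peak in all 6 libraries, at 4.70 and 73.1 with HIF-1α, 63.1 and 45.6 with HIF-2α, and 45.0 and 50.3 with HIF-1β. RCC4 had it in none of 6 libraries and the severity and duration experiment in none of 24. In the knockout experiment it was called in 9 of 14 libraries, among them all 4 HIF-2α libraries, at 20.9 to 43.1.

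GYS1, the muscle-type glycogen synthase that most tissues use, received only 3 peaks by the rule. Its start site lies close to that of RUVBL2, which is read in the opposite direction, and the promoter between them (chr19:49495919-49497663) was called in 11 libraries, of which the nearest-start rule gave 2 HepG2 HIF-1β peaks to GYS1. This interval was described after its values were seen, because the assignment turned on small distances. It was called in both RCC4 HIF-1α libraries (80.8 and 67.3), in neither HIF-2α nor HIF-1β of RCC4, in HepG2 with HIF-1β (89.6 and 80.7), HIF-1α replicate 2 (91.0) and HIF-2α replicate 1 (92.9), and in 5 of 14 libraries of the knockout experiment (7.74 to 61.1). No library of the severity and duration experiment had it. Its window held 2 HRE cores, in the 5′ UTR of RUVBL2. The third GYS1 peak was intronic, at 10.4 in RCC4 HIF-2α replicate 1 (chr19:49481768-49482688).

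The phosphorylase PYGL had a promoter site (chr14:51409844-51412245) in 13 libraries, 3 with HIF-1α, 4 with HIF-2α and 6 with HIF-1β. HepG2 held 5 of them, with 82.9 for HIF-1α replicate 2, 19.8 and 35.1 for HIF-2α, and 26.0 and 66.2 for HIF-1β. The knockout experiment held 7, between 18.3 and 76.9, and RCC4 held 1, at 78.6 for HIF-1α replicate 1. The peak centres were scattered from -549 to 248 bp from the start site, and the window around their median held no HRE core. PYGM, the muscle phosphorylase, had no peak in any of the 50 lists.

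PPP1R3B, the targeting subunit known chiefly from liver, had a promoter site (chr8:9007495-9009759) in 14 libraries. None of them was from HepG2 or from the severity and duration experiment. The knockout experiment held 11, between 25.4 and 80.1, the highest being 72.2 and 80.1 for HIF-1β in wild-type cells. RCC4 held 3, at 89.8 and 4.48 for HIF-1α and 57.5 for HIF-2α replicate 1. The site was centred 52 bp downstream of a start site in the 5′ UTR, with an HRE core 15 bp downstream.

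**Figure D2:**
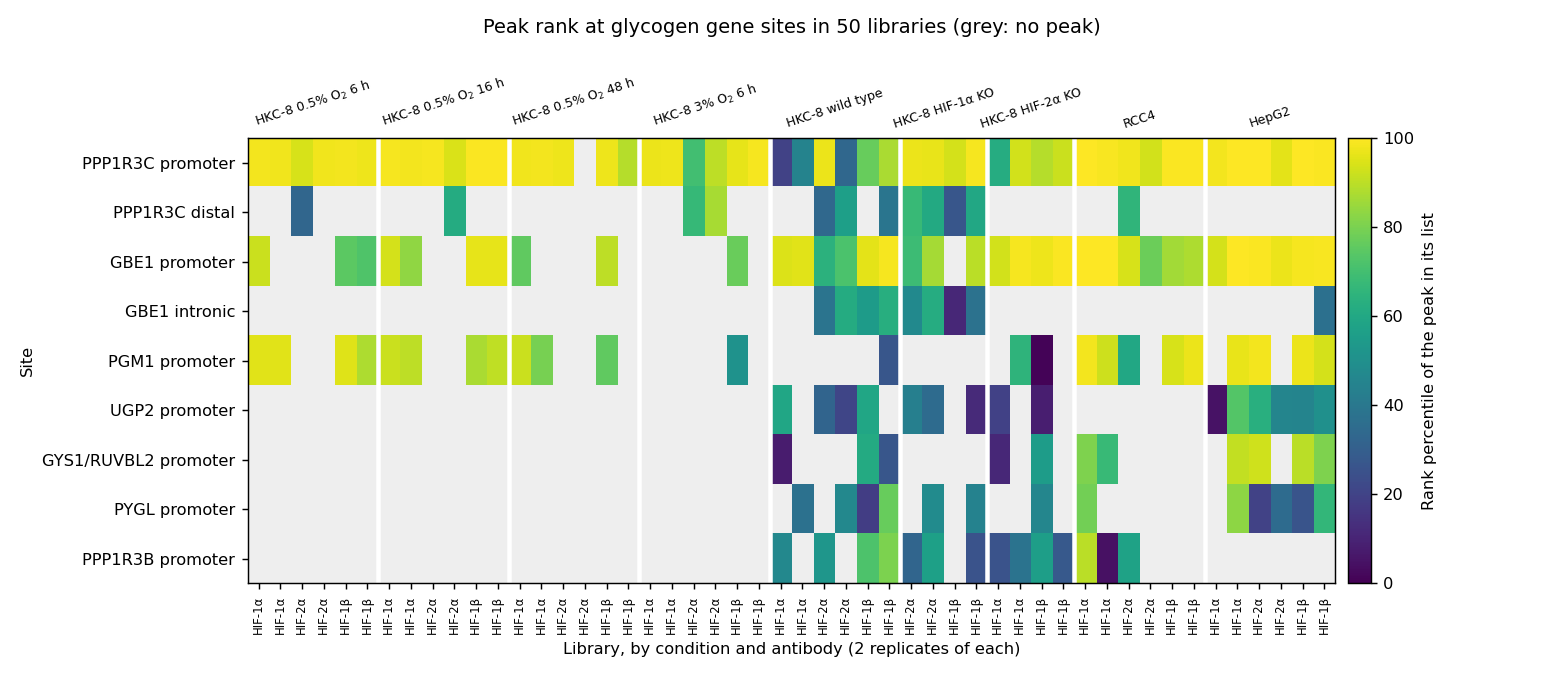
Rank percentile (colour, 0 to 100; grey, no peak) at 9 sites (rows) in each of the 50 libraries (columns), grouped by condition and antibody. PPP1R3C promoter peaks run across nearly all columns, while the UGP2, GYS1/RUVBL2, PYGL and PPP1R3B rows are empty throughout the severity and duration experiment.

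**Figure D3:**
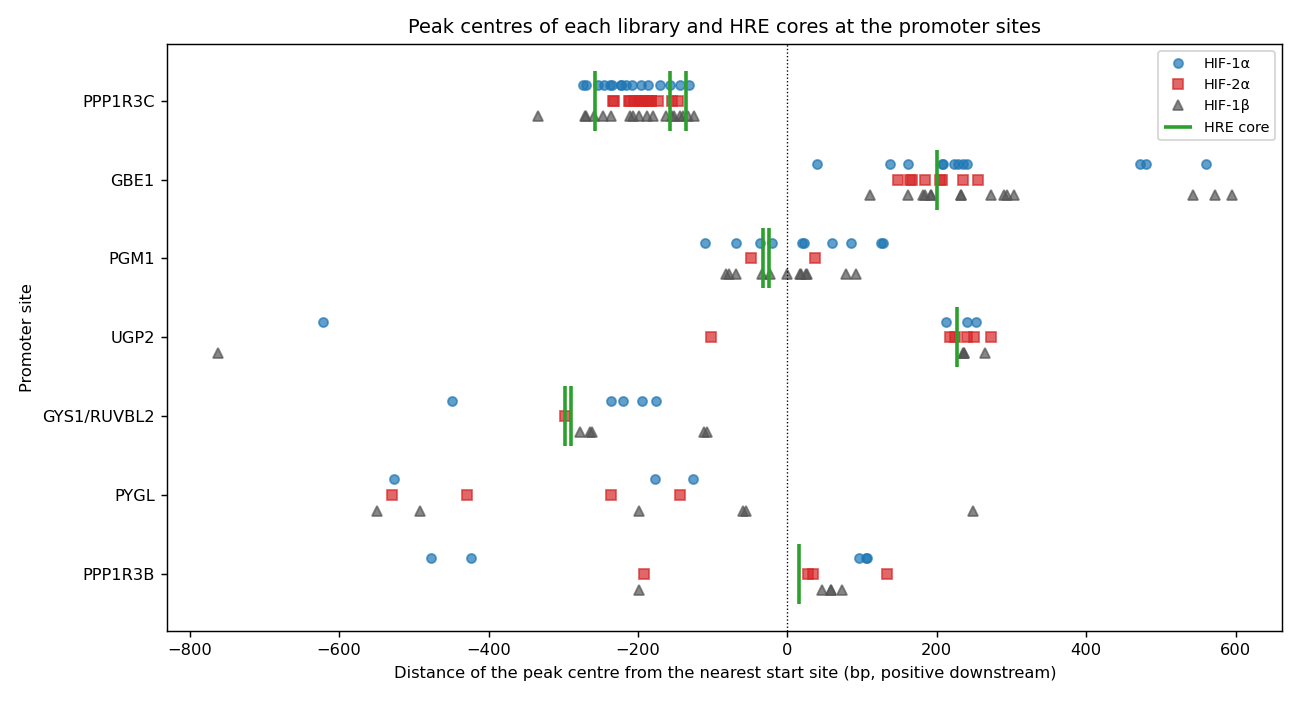
Distance of each library's peak centre from the nearest start site (x axis, bp, positive downstream) at the promoter sites (rows), by antibody, with HRE cores within 100 bp of the median centre as vertical lines. The 49 PPP1R3C centres lay between -334 and -125 bp, around 3 cores, whereas the PYGL centres were scattered and had no core.

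The comparison of HIF-1α with HIF-2α asked whether the isoforms bound the glycogen genes differently. It used the 28 HIF-α libraries of the 7 conditions in which both antibodies were used and neither isoform had been deleted, with an exact two-sided permutation test of the isoform labels within conditions (279936 arrangements) and Benjamini-Hochberg adjustment over the 3508 genes with a peak in at least 4 of the libraries. By this test 28 genes (0.798%) ranked higher with HIF-1α and 41 (1.17%) higher with HIF-2α, and none of the 6 glycogen genes tested was among either. The mean rank percentile of GBE1 was 66.3 with HIF-1α and 36.0 with HIF-2α, a difference of 30.2 points (permutation p = 0.00231, adjusted p = 0.0712). That of PGM1 was 59.4 with HIF-1α and 11.4 with HIF-2α, a difference of 48.0 points (permutation p = 0.00514, adjusted p = 0.123).

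The other 4 genes differed by less. PPP1R3C stood at 88.9 with HIF-1α and 84.5 with HIF-2α (difference 4.44 points, adjusted permutation p = 0.874), PPP1R3B at 13.6 and 7.86 (5.71 points, adjusted p = 0.832), PYGL at 14.2 and 8.68 (5.51 points, adjusted p = 0.860) and UGP2 at 9.78 and 11.6 (-1.85 points, adjusted p = 0.947). The median difference over all genes tested was -0.887 points and over the 6 glycogen genes 5.61 points. GYS1 and PYGM had too few peaks to be tested.

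Without the HepG2 libraries the same test placed GBE1 and PGM1 past the threshold of 0.05. GBE1 then differed by 35.6 points (adjusted permutation p = 0.0368) and PGM1 by 56.1 points (adjusted permutation p = 0.0315). These were 2 glycogen genes higher with HIF-1α against 2.58% of 2288 genes, and 0 higher with HIF-2α against 3.89%. With every list shortened to its 237 strongest peaks, 3 glycogen genes were called higher with HIF-1α, namely PPP1R3C (25.5 points, adjusted permutation p = 0.0429), GBE1 (31.0 points, adjusted p = 0.0409) and PGM1 (26.9 points, adjusted p = 0.0284). In that setting 18.2% of the 374 genes tested were called higher with HIF-1α and 18.2% higher with HIF-2α. The call for these genes thus depended on HepG2 and on the length of the lists. PGM1 had peaks in 3 HIF-2α libraries in all, so it reached the minimum of 4 libraries only through HIF-1α. In the shortened lists only the HepG2 HIF-2α peaks of GBE1 remained, and GBE1 too reached the minimum only through HIF-1α. Those calls of PGM1 and of GBE1 in the shortened lists are a description only.

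The isoforms were also compared site by site, a setting chosen after the data were seen, because PPP1R3C and GBE1 each had a distal site without HIF-1α peaks. Over 3302 merged sites, 48 (1.45%) ranked higher with HIF-1α and 134 (4.06%) higher with HIF-2α. The GBE1 promoter was the 1 glycogen site called, at 66.3 with HIF-1α and 36.0 with HIF-2α (adjusted permutation p = 0.0432). The PGM1 promoter, at 59.4 and 11.3, was not called (adjusted permutation p = 0.0752). The distal PPP1R3C site stood at 0 with HIF-1α and 28.9 with HIF-2α, and was not called either. Without HepG2, 2 glycogen sites were called higher with HIF-1α against 4.2% of 2264 sites, the GBE1 promoter (adjusted permutation p = 0.0237) and the PGM1 promoter (adjusted p = 0.0221). The distal PPP1R3C site, at 0 and 33.7, was then the 1 glycogen site past the threshold in the other direction, against 9.76% of sites. That is a description only, since the absence of HIF-1α peaks there had prompted the comparison by site and the site entered it through its HIF-2α libraries alone. The PGM1 promoter, with peaks in 2 HIF-2α libraries, likewise reached the minimum of 4 libraries only through HIF-1α. Its call is a description only too. The PPP1R3C promoter, at 88.9 with HIF-1α and 82.8 with HIF-2α, was called in neither fit (adjusted permutation p = 0.743, and 0.624 without HepG2).

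**Figure D4:**
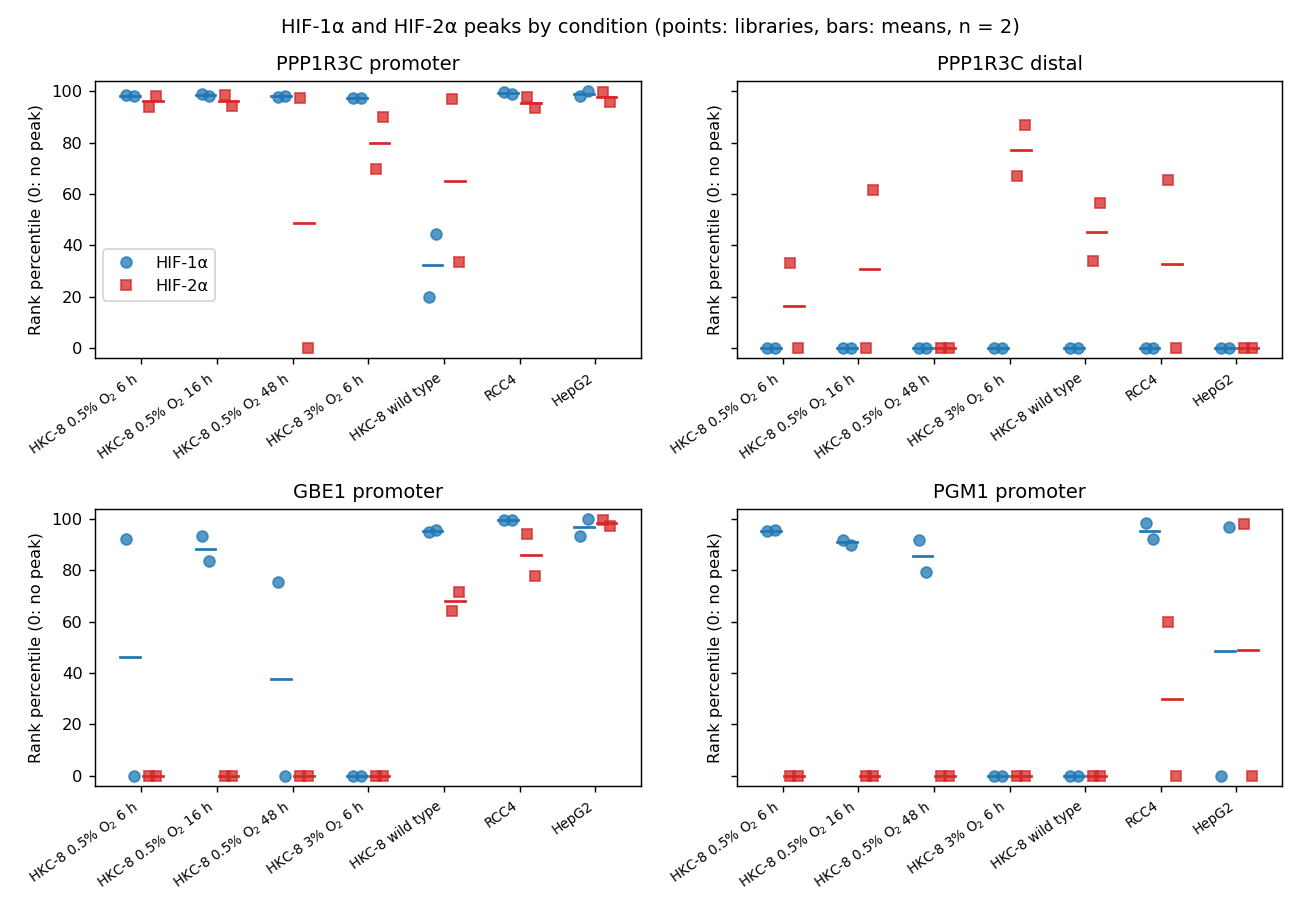
Rank percentile (y axis, 0 where no peak was called) of HIF-1α (circles) and HIF-2α (squares) at 4 sites by condition (x axis). Points are libraries and bars their means of 2. HIF-1α circles of the distal PPP1R3C panel all lie at 0, and in the PGM1 panel the HIF-2α squares lie at 0 in every HKC-8 condition.

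The knockout experiment asked whether binding of one isoform changes when the other is missing. With 2 libraries against 2 no exact permutation test can give a two-sided p below 0.333, so only values are given. At the GBE1 promoter HIF-1β stood at 95.9 and 98.8 in wild-type cells and at 97.3 and 99.5 in HIF-2α KO cells, and in HIF-1α KO cells it had no peak in 1 library and 89.8 in the other. HIF-1α there stood at 93.1 and 98.6 in HIF-2α KO cells, overlapping the wild-type values of 94.9 and 95.6. HIF-2α stood at 68.7 and 86.6 in HIF-1α KO cells and at 64.2 and 71.7 in the wild type, and these overlapped.

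At the distal sites HIF-1β had peaks in HIF-1α KO cells and none in HIF-2α KO cells. The HIF-1β lists of HIF-2α KO cells were the shortest of this antibody in the experiment, at 2550 and 2085 peaks. In the longer HIF-1β lists these peaks stood at positions 2311 to 5071 (PPP1R3C) and 2805 to 3617 (GBE1). They could thus be missing through list length, whose part was not tested. The GBE1 intronic site had HIF-1β at 54.8 and 62.7 in wild-type cells and at 11.2 and 37.5 in HIF-1α KO cells, and it had no HIF-1β peak in HIF-2α KO cells. The distal PPP1R3C site had HIF-1β at 38.8 in 1 of 2 wild-type libraries and at 26.8 and 60.1 in HIF-1α KO cells, and none in HIF-2α KO cells. HIF-2α at the distal PPP1R3C site was 34.0 and 56.4 in wild-type cells and 67.2 and 60.8 in HIF-1α KO cells, the KO libraries being higher.

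At the PPP1R3C promoter HIF-1β stood at 93.6 and 98.8 in HIF-1α KO cells and at 88.8 and 92.0 in HIF-2α KO cells, above the wild-type 76.6 and 87.4. HIF-1α there rose from 19.9 and 44.6 in the wild type to 62.1 and 93.1 in HIF-2α KO cells in rank, without overlap. At the PPP1R3B promoter HIF-1β fell in rank from 72.2 and 80.1 in the wild type to no peak and 25.4 in HIF-1α KO cells and to 56.2 and 28.1 in HIF-2α KO cells.

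Non-overlap of this kind was common across the genome and is read against it. For HIF-1β in HIF-1α KO cells, 1 of 5 glycogen genes measured (PPP1R3C) had both KO libraries above both wild-type libraries, against 8.39% of genes, and 2 (PPP1R3B and GBE1) had both below, against 49.9%. In the GBE1 count the first KO library was represented by its intronic peak, at 11.2. For HIF-1β in HIF-2α KO cells 1 of 6 (PPP1R3C) was above, against 4.49%, and 1 (PPP1R3B) was below, against 73.1%. For HIF-2α in HIF-1α KO cells 1 of 5 (UGP2) was above, against 32.8%, and 0 were below, against 21.9%. For HIF-1α in HIF-2α KO cells 1 of 4 (PPP1R3C) was above, against 10.4%, and 0 were below, against 40.2%. The wild-type HIF-1β lists were the longest HIF-1β lists of the series. They held 6199 and 8279 peaks against 2085 to 5786 in the HIF-1β lists of the KO cells, and the part of list length in these differences was not tested.

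**Figure D5:**
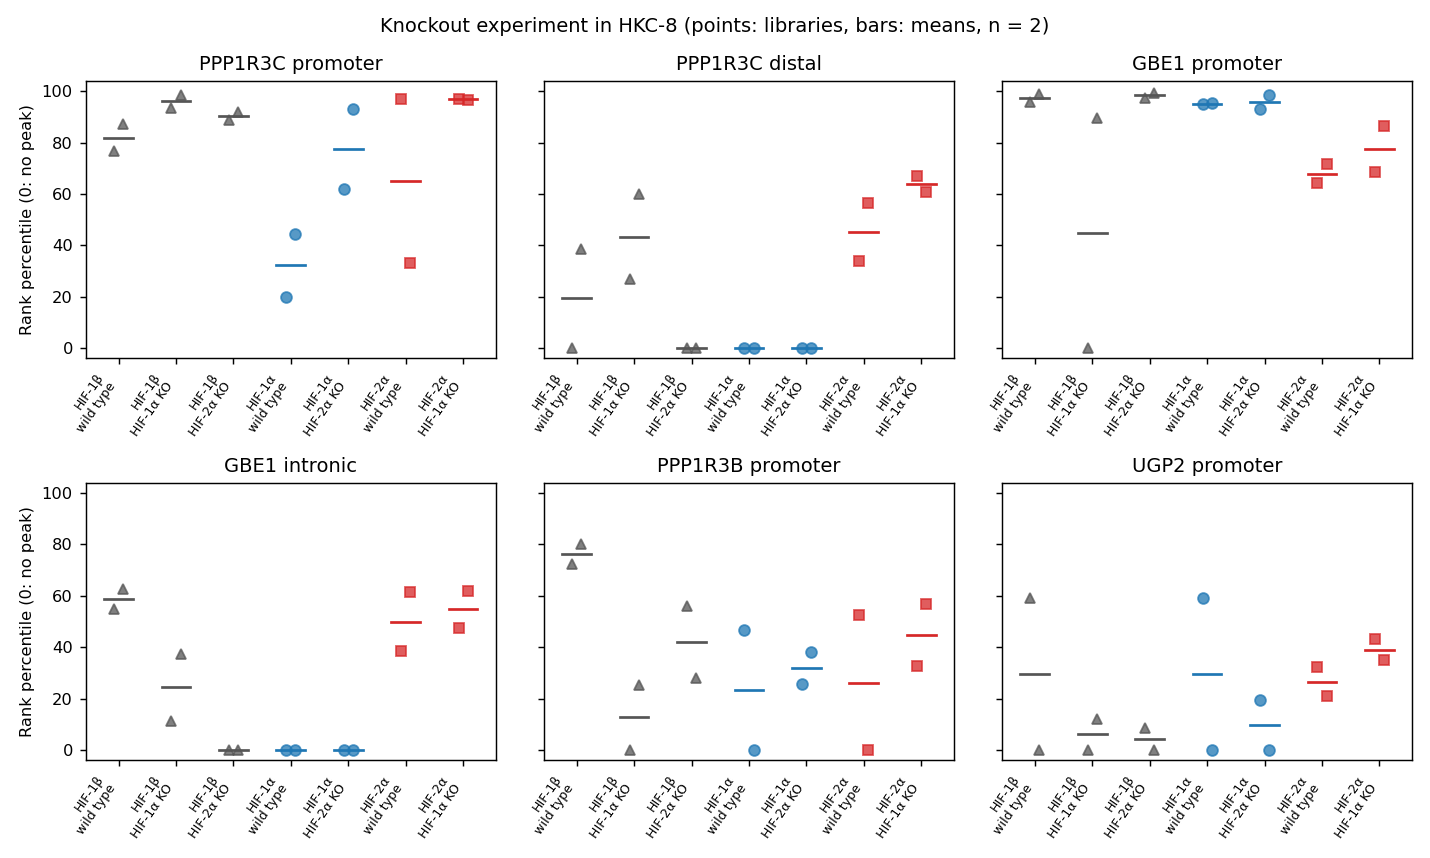
Rank percentile (y axis, 0 where no peak was called) at 6 sites by antibody and genotype in the knockout experiment (x axis). Points are libraries and bars their means of 2. HIF-1β triangles at the GBE1 intronic and distal PPP1R3C sites lie at 0 in HIF-2α KO cells, whereas those at the GBE1 promoter stay at 97.3 and 99.5 there. The HIF-1β lists of HIF-2α KO cells were shorter than those of the other genotypes, at 2550 and 2085 peaks.

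The severity of hypoxia was compared at 6 h, with 3% against 0.5% oxygen and the labels exchanged within antibodies. Only 216 arrangements exist for each comparison of this size, and the smallest exact p is 0.00926, so a missing call after adjustment carries little weight. None of the 3 glycogen genes tested passed, against 0% of 523 genes. PGM1 had the widest gap, with a mean of 8.49 at 3% and 62.3 at 0.5% oxygen over the 3 antibodies (exact permutation p = 0.0556, adjusted p = 0.346). PPP1R3C went from 97.4 at 0.5% to 91.5 at 3% (exact permutation p = 0.0463, adjusted p = 0.346), and GBE1 from 39.9 to 12.8 (exact permutation p = 0.5, adjusted p = 0.776). The lists at 3% oxygen held 558 to 1223 peaks and those at 0.5% oxygen 1271 to 1496, and the median over all genes tested was lower by 9.48 points at 3%.

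Duration gave no call either. At 16 h against 6 h 0 of 3 glycogen genes passed, against 0% of 739 genes, and at 48 h against 6 h 0 of 3, against 0% of 508. PPP1R3C changed by 0.673 points between 6 and 16 h, GBE1 by 21.7 and PGM1 by -1.99. Between 6 and 48 h PPP1R3C changed by -17.4 points, GBE1 by -12.4 and PGM1 by -21.2. The first of these rested on the single 237-peak list, without which the PPP1R3C difference was -1.10 points. With HIF-1β, PGM1 stood at 95.2 and 87.6 at 6 h, 87.4 and 90.5 at 16 h, and 75.4 in 1 of 2 libraries at 48 h. GBE1 stood at 74.8 and 72.6 at 6 h, 96.5 and 96.4 at 16 h, and 90.0 in 1 of 2 libraries at 48 h. The unadjusted exact p was under 0.05 for 42 genes for severity, 37 for 16 h and 25 for 48 h.

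Cell lines were compared with wild-type HKC-8 cells of the knockout experiment and with each other, again by exact permutation within antibodies. None of the 6 glycogen genes passed for HepG2 against HKC-8 (0% of 3771 genes called, 1230 with an unadjusted exact p under 0.05), for RCC4 against HKC-8 (0% of 2689 genes, 609) or for HepG2 against RCC4 (0% of 2946 genes, 750). UGP2 showed the clearest gap between HepG2 and RCC4, with means of 47.1 and 0 and no overlap within any antibody (exact permutation p = 0.00926, the smallest possible, adjusted p = 0.0696). The median difference over all genes tested was 24.3 points for HepG2 against RCC4, 4.73 for HepG2 against HKC-8 and -21.8 for RCC4 against HKC-8. Lists held 3470 to 6851 peaks in HepG2 and 911 to 5680 in RCC4, and the part of list length was not tested. PPP1R3C averaged 98.9 in HepG2 and 98.1 in RCC4 against 63.8 in wild-type HKC-8 (exact permutation p = 0.0185 in either comparison, adjusted p = 0.0904 and 0.131). PGM1 averaged 64.2 in HepG2 and 73.6 in RCC4 against 4.46 in HKC-8 (exact permutation p = 0.0833 and 0.0278, adjusted p = 0.128 and 0.131). PPP1R3B was lower in HepG2 than in HKC-8, with means of 5.92, from a distal peak, and 41.9 (exact permutation p = 0.0833, adjusted p = 0.128). Line cannot be told apart from experiment in these comparisons, nor from oxygen where RCC4 is compared. HKC-8 cells of the severity and duration experiment, at 16 h in 0.5% oxygen, averaged 98.1 at PPP1R3C, 60.3 at PGM1 and 0 at PPP1R3B.

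Counted by peaks in both libraries of a group, wild-type HKC-8 held 2 of the 8 genes with HIF-1α (3.89% of all genes), 4 with HIF-2α (9.57%) and 4 with HIF-1β (13.5%). RCC4 held 4 with HIF-1α (4.25%), 2 with HIF-2α (4.34%) and 3 with HIF-1β (1.89%). HepG2 held 3 with HIF-1α (5.46%), 4 with HIF-2α (5.69%) and 6 with HIF-1β (9.34%), that is all of the 8 but PPP1R3B and PYGM.

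Wild-type HKC-8 cells at 0.5% oxygen for 16 h were precipitated in both HKC-8 experiments, and these were compared after the data were seen. No glycogen gene was called, while 472 of 2317 genes (20.4%) ranked higher in the knockout experiment and 11 (0.475%) lower. PPP1R3C averaged 63.8 in the knockout experiment and 98.1 in the severity and duration experiment, and PGM1 4.46 and 60.3. GBE1 went the other way, at 86.8 and 61.6, as did PYGL at 33.2 and 0 (exact permutation p = 0.0185 for PPP1R3C and 0.0278 for the other 3 genes, adjusted p = 0.0746 for all 4). PPP1R3B, at 41.9 and 0, and UGP2, at 28.6 and 0, were also higher in the knockout experiment (exact permutation p = 0.0833, adjusted p = 0.110 for both). The median over all genes tested was higher there by 35.1 points. Lists held 1535 to 8279 peaks in the first experiment and 951 to 1793 in the second. With every list cut to its 237 strongest peaks PPP1R3C differed by -83.5 points and was called (exact permutation p = 0.00926, adjusted p = 0.0497), and the GBE1 difference was then -10.3 points. The part of the experiment and that of list length in these values cannot be told apart.

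A further 26 genes of glycogen metabolism were counted by the same rule. Peaks were given to 20 of the 26, against 60.1% of all protein-coding genes, and in at least 10 libraries to 5 of the 26, against 12.1% of all. PPP1R3E, another targeting subunit of protein phosphatase 1, had peaks in 21 libraries, 11 with HIF-1α, 10 with HIF-1β and none with HIF-2α, centred at -14 bp from its start site. It was the single further gene called between the isoforms, at 60.9 with HIF-1α and 0 with HIF-2α (adjusted permutation p = 0.0423 over the same 3508 genes). PPP1R3E entered that test through its HIF-1α libraries alone, so its call is a description only. Its merged site, which includes peaks given to a neighbouring gene, stood at 67.8 and 7.02 (adjusted permutation p = 0.0508). PGM2, a relative of PGM1, had peaks in 12 libraries, 6 with HIF-1α and 6 with HIF-1β, and the synthase primer gene GYG2 in 8, 4 with HIF-2α and 4 with HIF-1β. PPP1R3G, a further targeting subunit, was called in 16 libraries with all 3 antibodies. The brain phosphorylase gene PYGB was among the 6 genes without a peak.

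For each gene with peaks in at least 10 libraries, the 3 other protein-coding genes with the most similar rank percentiles over the 50 libraries were noted. Many zeros are shared by these profiles, and the libraries share lines and batches, so the correlations are descriptive. PPP1R3C was most like LDHA (r = 0.896), the gene of lactate dehydrogenase A, then AK4 (r = 0.859) and ALDOA (r = 0.731), the gene of aldolase A. GBE1 was most like SAP30 (r = 0.860), NAT10 (r = 0.850) and RBPJ (r = 0.845). PGM1 was most like NUDT18 (r = 0.893), P4HA2 (r = 0.846), which encodes a collagen prolyl hydroxylase subunit, and ZC3HAV1L (r = 0.841). PPP1R3B was most like CDC42EP1 (r = 0.850), KCNG4 (r = 0.801) and ACSL1 (r = 0.778). PYGL was most like BOD1 (r = 0.857), WEE1 (r = 0.789) and SPEN (r = 0.788), and UGP2 most like ITGAM (r = 0.807), CST8 (r = 0.800) and ZNF148 (r = 0.790).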

How the data were processed

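The authors trimmed reads with Trim Galore (0.3.3), aligned them to GRCh37 (hg19) with BWA (0.7.5a-r405), filtered them with SAMtools (0.1.19) and bedtools (2.17.0), marked duplicates with Picard (1.106) and called peaks with MACS against input (tools as in the submitters' processing notes). The study's second caller and its background filter were not part of these lists. Each deposited list came from 1 library, and its score, read as the scaled logarithm of the p-value that early MACS versions write, was used only to rank peaks within a list. Depth cannot be read from the lists. The 16 input libraries were not used here. Peaks were assigned with GENCODE release 44 lifted to GRCh37, using protein-coding transcripts, by the distance to the nearest start site. Motif and sequence windows came from the same build, and no sequence is printed for PPP1R3B. Tests were exact stratified permutations in Python (3.11.15) with NumPy (2.4.6) and pandas (2.3.3), checked against brute force on simulated data. All p-values measure the spread between libraries, which may be technical. Alternatives were equal-length lists, a score of at least 100, presence or absence, other gene assignments, and leaving out replicates or HepG2. Members, lists and comparisons were chosen with earlier results of these data known. All 8 genes were named, as were sites called in at least 5 libraries and the 3 most alike genes. The values of 1 further glycogen gene are not reported here. Same-numbered replicates did not deviate together (correlations of replicate differences between HIF-1α and HIF-2α from -0.342 to 0.108), so the numbers were not used to pair libraries.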

Additional observations from a re-analysis of the deposited data

Results flagged for a closer look

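At PPP1R3C the difference between HIF-1α and HIF-2α in rank percentile took opposite signs in different conditions, with both libraries of one antibody above both of the other. HIF-1α ranked higher by 2.18 points at 0.5% oxygen for 6 h, 49.3 points at 48 h, 17.5 points at 3% oxygen and 3.78 points in RCC4, whereas in wild-type cells of the knockout experiment the difference was -45.1 points. The 48 h value rests on the HIF-2α library with 237 peaks, which had no peak at PPP1R3C. At 6 h in 0.5% oxygen the lower HIF-1α value was 98.03 and the higher HIF-2α value 97.99. In the wild type the HIF-1α values were 19.9 and 44.6, and the HIF-2α value of replicate 2, 57.6, came from a peak 42.5 kb from the start site, the promoter peak of that library being at 33.4. At the promoter itself the wild-type HIF-2α values, 97.0 and 33.4, thus overlapped those of HIF-1α. The difference between conditions was not tested.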

How the results depend on the processing

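Of 500 values recomputed under an alternative, 424 were classed as the same. For tested differences this meant the same direction and side of the threshold, and for knockout values a move within the spread between replicates. For counts it meant a change within a set fold limit. The count of 69 genes called between the isoforms became 43 with peaks scoring at least 100, 136 with equal-length lists, 148 without HepG2, and 182 sites or, without HepG2, 316 sites when merged sites were tested (an alternative chosen after the data were seen). It was 0 with presence or absence in place of rank (221 genes with an unadjusted permutation p under 0.05) and 0 with genes called in at least 1 library (462). It ranged from 0 to 0 without replicate 1 or 2 (56 and 51), where the smallest possible p does not survive adjustment. With equal-length lists HepG2 against HKC-8 gave 78 calls and RCC4 against HKC-8 gave 55. The 483 calls between the HKC-8 experiments became 46 with equal-length lists and 0 with presence or absence (442), and ranged from 0 to 0 without replicate 1 or 2. The glycogen peaks numbered 195, 125 with a score of at least 100, 84 in equal-length lists (3 genes) and 95 to 100 without either replicate. An HRE core was in 6 recurrent sites, and in 7 when whole sites were searched.

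With a replicate block the isoform comparison gave 0 calls (370 genes with an unadjusted permutation p under 0.05) and the comparison of the HKC-8 experiments 0 (515), and no other call changed, though the numbers were not shown to pair the libraries.

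Differences that turned sign were all uncalled. Between the isoforms these were PYGL with presence or absence (-7.14 points) and PPP1R3C without replicate 2 (-6.30, against 15.2 without replicate 1) and without the 237-peak library (-2.53). Between 16 and 6 h they were PGM1 with scores of at least 100 (1.84) and with presence or absence (16.7) and PPP1R3C without replicate 1 (-0.659, against 2.00 without replicate 2), and between 48 and 6 h PPP1R3C without replicate 2 (0.792, against -35.5 without replicate 1). Between lines they were PYGL (-0.660, scores of at least 100) and UGP2 (-12.5 without replicate 2, 49.7 without replicate 1) for HepG2 against HKC-8, GBE1 for RCC4 against HKC-8 (-8.23 with scores of at least 100 and -0.367 without replicate 1, against 8.29 without replicate 2), and PGM1 for HepG2 against RCC4 (4.28 and 0.357 in the same settings, against -19.1 without replicate 2). Between the HKC-8 experiments it was GBE1 with equal-length lists (-10.3). The cause was not tested.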
